A study of Mus musculus with 9 samples.

Results

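Immune checkpoint ligands and suppressive molecules were followed in 9 subcutaneous KLN205 tumors by RNA sequencing. The set holds 10 genes out of 19481 in the table: *Cd274*, *Pdcd1lg2*, *Cd80*, *Cd86*, *Cd276*, *Ido1*, *Lgals9*, *Cd47*, *Sirpa* and *Pvr*. They were taken by symbol, as ligands, an enzyme and surface signals of tumor or myeloid cells that restrain or stimulate T cells and phagocytes. All 10 had enough reads to be tested, among 14725 genes tested.

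KLN205 is a transplantable mouse lung squamous cell carcinoma line of DBA/2 origin, and it was grown in the flanks of immunocompetent DBA/2 females that were 6 to 8 weeks old at injection. All 9 tumors carried a SMART doxycycline-inducible shRNA, and all mice drank doxycycline from the time the mean tumor volume reached 100 mm3 until day 50. The shRNA was a scrambled control in 3 tumors (shControl), *Tmprss11b* construct 2 in 3 tumors (sh2) and *Tmprss11b* construct 3 in 3 tumors (sh3). The constructs were carried by the transplanted cells, a transduced and selected pool, and not by the host. A bulk tumor holds RNA of carcinoma and host cells together, so fewer cells of a type and less RNA per cell cannot be told apart.

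T cells are switched off or held back through receptors whose ligands sit on tumor cells, macrophages and dendritic cells. PD-L1 and PD-L2 bind PD-1, the B7 proteins CD80 and CD86 bind both the activating receptor CD28 and the inhibitory receptor CTLA-4, galectin-9 binds TIM-3, and CD155, the product of *Pvr*, binds the inhibitory receptors TIGIT and CD96 and the activating receptor CD226. IDO1 depletes tryptophan, and CD47 on any cell tells a macrophage that carries SIRPα not to engulf it. Interferon gamma from T cells and NK cells is a known inducer of PD-L1 and IDO1.

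Total counts ranged from 20653219 to 24047784 per tumor. Levels are given as CPM, counts scaled to library size after TMM, a correction for library composition, and 3 counts correspond to 0.123 to 0.152 CPM, a floor that covers counting error only. The targeted gene, listed as *Tmprss11bnl*, had 18, 51 and 42 counts in the shControl tumors, 7, 2 and 5 in the sh2 tumors and 10, 4 and 5 in the sh3 tumors, so every tumor with a *Tmprss11b* shRNA was below every shControl tumor. Libraries stood apart in their leukocyte RNA. *Ptprc*, which encodes the pan-leukocyte protein CD45, was lowest in sh3 replicate 1 (93.2 CPM) and sh2 replicate 2 (98.0 CPM), against 142.8 to 251.4 CPM in the other 7 tumors. The sum of 16 macrophage and monocyte markers was also lowest in these libraries. It was 2413 CPM in sh3 replicate 1 and 2922 CPM in sh2 replicate 2, and it was highest in sh3 replicate 2 at 8274 CPM. The monocyte marker *Ly6c2*, among the 16, went the other way. It was highest in sh3 replicate 1 (581.5 CPM) and sh2 replicate 2 (272.2 CPM), against 11.0 to 157.5 CPM in the other tumors. Epithelial keratins were high in every tumor, with *Krt8* between 696.7 and 1788 CPM, whereas *Krt5*, a squamous keratin, was under 1 CPM in 6 of the 9 tumors and at 87.4 CPM in shControl replicate 1. *Trp63*, a squamous lineage factor, was between 0.37 and 6.94 CPM.

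None of the 10 genes differed between groups under an FDR of 0.05 in edgeR's quasi-likelihood test, where 0.0% of all genes tested were under this threshold in each of the 4 comparisons. By DESeq2's Wald test 2, 41, 9 and 48 genes were under it, in the order given next, and by edgeR's likelihood ratio test 0, 8, 8 and 14, none of them among the 10. At an unadjusted p under 0.05 there were 0 of the 10 genes with sh2 against shControl, beside 3.52% of all genes tested, and 2 with sh3 against shControl, *Pdcd1lg2* and *Ido1*, beside 6.63%. For the mean of both constructs against shControl there were 0, beside 4.09%, and for sh3 against sh2 there was 1, *Ido1*, beside 7.18%. The tumors of the groups compared did not overlap for 0 of the 10 genes with sh2, with sh3 and with both constructs against shControl, where 11.4%, 12.2% and 2.17% of all genes tested did not overlap. Between sh3 and sh2 they did not overlap for 1 gene, *Ido1*, beside 10.1% of all genes tested. Each count thus lay within 2 genes of what these shares give among 10 genes. The edgeR p-values set a group difference against the spread between tumors within groups, estimated over all 9 tumors. The spread of the sh3 tumors thus also enters sh2 against shControl.

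With sh2, 5 of the 10 genes were above shControl, beside 7625 of all 14725 genes tested, and their median log2 fold change was 0.00 beside 0.01. With sh3, 9 of the 10 were above shControl, all but *Cd276*, beside 8083 of all 14725, with a median of 0.18 beside 0.03. Of these 9 signs, those of *Cd274*, *Cd86*, *Lgals9*, *Sirpa* and *Pvr* turned when 1 tumor was left out. These comparisons share the shControl tumors. The extremes of the 10 genes lay mostly in the 6 *Tmprss11b* shRNA tumors, on both sides, but these are 6 of the 9 tumors. Where the extremes of all genes tested fall was not computed, so this is a description only. The highest level was in sh3 replicate 2 for 4 genes, sh3 replicate 3 for 3, sh2 replicate 2 for 2 and sh3 replicate 1 for 1, and the lowest was in shControl replicate 1 for 3 genes, sh3 replicate 1 for 3, sh2 replicate 2 for 2 and sh3 replicate 2 for 2.

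**Figure D1:**
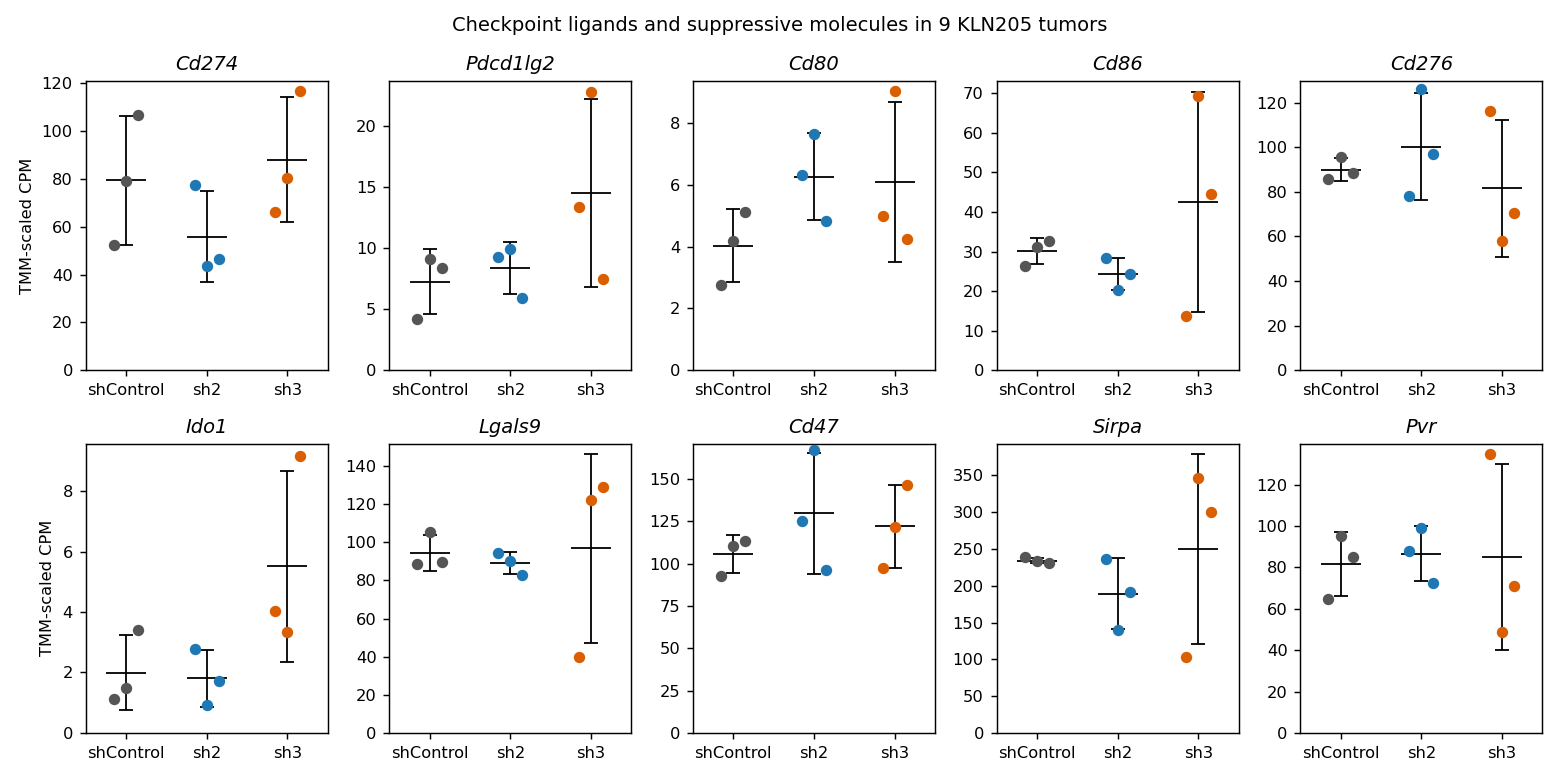
TMM-scaled CPM of each of the 10 genes in the 9 tumors, 1 panel a gene with its own axis from 0. Points are tumors in the order of their replicate number, the long tick is the group mean and the bars are 1 SD (n = 3). The sh3 tumors spread widely for *Cd86*, *Lgals9*, *Sirpa* and *Pvr*, where sh3 replicate 1 lies on the other side of the shControl tumors from sh3 replicate 2.

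Compared per transcript length, as deposited TPM, the levels spanned a wide range. *Cd47* (139.9 ± 26.6 TPM, SD, n = 9 tumors), *Lgals9* (131.7 ± 31.4 TPM) and *Sirpa* (117.3 ± 33.0 TPM) were the most abundant. *Pvr* (66.9 TPM), *Cd276* (64.9 TPM), *Cd274* (46.2 TPM) and *Cd86* (27.9 TPM) came next. *Cd80* (7.15 TPM), *Pdcd1lg2* (6.46 TPM) and *Ido1* (4.43 TPM) were at the bottom, between the percentiles 20.7 and 26.4 of all genes tested. Some neighbours in this order changed places between tumors: *Cd47* exceeded *Lgals9* in 4 of the 9 tumors, *Pvr* exceeded *Cd276* in 5, and *Cd80* exceeded *Pdcd1lg2* in 6. *Cd86* was above *Cd80* in 9 of 9 tumors.

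**Figure D2:**
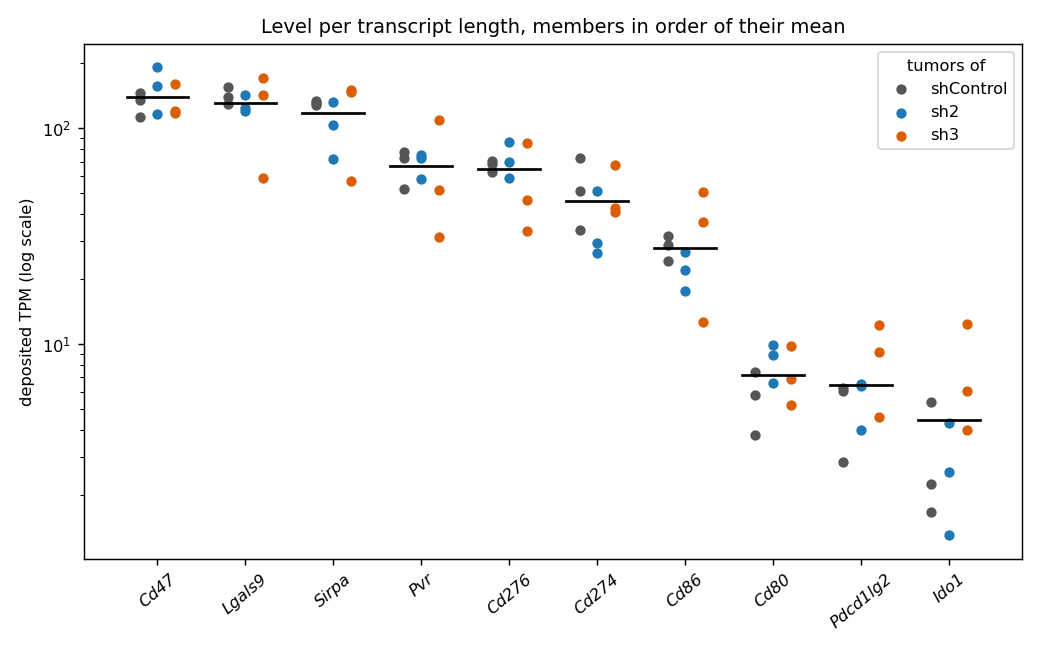
Deposited TPM of the 10 genes on a log axis, ordered by their mean over the 9 tumors (black line). Points are tumors coloured by group. The 7 genes on the left average 27.9 to 139.9 TPM and the 3 on the right 4.43 to 7.15 TPM.

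The genes of the PD-1 ligands lie next to each other. *Cd274* occupies chr19:29367455-29388095 and *Pdcd1lg2* chr19:29410919-29471161 (mm10, GENCODE M21), both on the plus strand, with 22823 bases and 0 annotated genes between them. An annotated antisense gene runs over 11055 bases of *Cd274* and another over 6412 bases of *Pdcd1lg2*. The libraries were stranded, but the strand setting of the counting is not given in the sources used here, so reads from these antisense genes could have entered the counts.

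*Cd274*, which encodes PD-L1, was at 52.6, 79.0 and 107 CPM in the shControl tumors, 77.7, 43.7 and 46.4 CPM in the sh2 tumors and 66.3, 80.6 and 117 CPM in the sh3 tumors. The groups overlapped, with the lowest levels in sh2 replicates 2 and 3. Its log2 fold change was −0.51 with sh2 (SE 0.33, 95% interval −1.24 to 0.23, FDR 0.999, edgeR) and 0.15 with sh3 (SE 0.32, interval −0.59 to 0.88, FDR 0.948, edgeR). The sh2 value was −0.82 without sh2 replicate 1 and −0.23 without shControl replicate 3. The sh3 value was negative without shControl replicate 1 (−0.09) or sh3 replicate 3 (−0.14). Between the constructs it was 0.65 higher with sh3 on the log2 scale (SE 0.33, interval −0.08 to 1.39, FDR 0.675, edgeR; exact permutation p = 0.2, two-sided, where 3 tumors against 3 allow no p below 0.1). That difference was 0.36 without sh3 replicate 3.

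*Pdcd1lg2*, which encodes PD-L2, was at 4.17, 9.11 and 8.35 CPM in the shControl tumors, 9.27, 9.90 and 5.88 CPM in the sh2 tumors and 13.4, 22.7 and 7.44 CPM in the sh3 tumors. The highest levels were in sh3 replicates 1 and 2, while sh3 replicate 3 lay within the shControl range. With sh3 it was 2.01-fold the shControl level (95% interval 1.01 to 4.01), with an unadjusted p = 0.0482 and an FDR of 0.753 in edgeR. Without sh3 replicate 2 the log2 fold change dropped from 1.01 to 0.53 (unadjusted p = 0.237, edgeR), and without shControl replicate 1 it was 0.71 (unadjusted p = 0.153, edgeR). The unadjusted p was above 0.05 in 7 of the 9 fits that left out 1 tumor. The log2 fold change with sh2 was 0.21 (SE 0.44), and it was −0.06 without shControl replicate 1.

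The balance of the neighbouring ligands therefore varied between tumors. The ratio of *Cd274* to *Pdcd1lg2* CPM was 12.6, 8.67 and 12.8 in the shControl tumors, 8.38, 4.41 and 7.89 in the sh2 tumors and 4.96, 3.55 and 15.7 in the sh3 tumors. The ratio was below every shControl value in 5 of the 6 shRNA tumors and above all of them in sh3 replicate 3. Over the 9 tumors the log2 levels of the PD-1 ligands had a Pearson r of 0.25.

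The promoters are printed because *Cd274* varied across tumors with interferon-inducible GTPase genes, given below. Each holds 250 bases before and 50 after a start taken from RefSeq on GRCm38.p6, the same assembly as mm10. That start need not be the gene start of GENCODE M21. A *Cd47* window begins at chr16:49855404, inside the gene that starts at 49800533, and the windows of *Cd80*, *Cd276* and *Tgtp1* also lie inside their genes. A count of matches thus concerns only the start used. Capitals mark matches to TTCNNNGAA, the core of a gamma-activated site, or to GAAA, any 2 bases and GAAA again, a spacing typical of interferon-stimulated response elements, on either strand. No base is shared by matches of both kinds. The table has promoters of 6 of the 10 genes, and *Cd86*, *Ido1*, *Sirpa* and *Pvr* were not among them.
Cd274, chr19:29367188-29367487, plus strand: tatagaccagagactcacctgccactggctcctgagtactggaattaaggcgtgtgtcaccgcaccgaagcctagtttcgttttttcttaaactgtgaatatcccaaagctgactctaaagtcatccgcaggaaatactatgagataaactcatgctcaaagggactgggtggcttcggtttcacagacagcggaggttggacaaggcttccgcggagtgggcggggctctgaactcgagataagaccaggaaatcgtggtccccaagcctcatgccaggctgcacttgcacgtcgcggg
Lgals9, chr11:78984875-78985174, minus strand: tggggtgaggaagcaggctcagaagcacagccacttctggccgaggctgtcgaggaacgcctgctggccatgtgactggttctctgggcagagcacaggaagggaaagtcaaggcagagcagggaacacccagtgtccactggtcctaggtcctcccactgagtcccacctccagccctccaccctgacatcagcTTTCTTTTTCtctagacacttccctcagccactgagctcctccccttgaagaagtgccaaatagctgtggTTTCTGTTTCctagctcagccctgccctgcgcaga
Gbp7, chr3:142530086-142530385, plus strand: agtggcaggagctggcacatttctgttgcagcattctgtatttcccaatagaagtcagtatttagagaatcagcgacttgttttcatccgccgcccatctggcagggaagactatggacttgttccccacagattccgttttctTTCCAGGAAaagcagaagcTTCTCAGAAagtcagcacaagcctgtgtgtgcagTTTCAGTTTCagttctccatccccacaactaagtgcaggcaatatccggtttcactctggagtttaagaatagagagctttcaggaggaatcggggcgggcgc
Tgtp1, chr11:48992197-48992496, minus strand: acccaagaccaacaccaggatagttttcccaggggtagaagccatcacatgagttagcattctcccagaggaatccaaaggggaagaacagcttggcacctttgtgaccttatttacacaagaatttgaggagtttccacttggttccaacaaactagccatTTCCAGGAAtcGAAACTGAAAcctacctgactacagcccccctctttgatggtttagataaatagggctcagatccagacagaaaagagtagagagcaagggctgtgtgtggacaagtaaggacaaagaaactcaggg

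TTCNNNGAA was found in 8.3% and the doubled GAAA in 3.44% of the 32851 promoters in the table. The *Cd274* window holds 0 matches to either, as do those of *Pdcd1lg2*, *Cd80*, *Cd276* and *Cd47*. The *Lgals9* window holds 2 matches to the doubled GAAA, with first bases at −55 and 16 relative to the start. *Gbp7* holds 2 matches to TTCNNNGAA and 1 to the doubled GAAA, and *Tgtp1* holds 1 of each. A match is a description of the letters and not a binding site, and a window without one says nothing of the factor.

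*Gbp7* and *Tgtp1*, both interferon-inducible GTPase genes, were the tested genes whose log2 CPM was most like that of *Cd274* over the 9 tumors (Pearson r = 0.99 and 0.979). *Gbp7* was at 124.5, 185.3 and 249.2 CPM in the shControl tumors, 186.3, 93.7 and 100.4 CPM in the sh2 tumors and 156.4, 221.4 and 299.7 CPM in the sh3 tumors, so the tumors lowest in *Cd274* were also lowest in *Gbp7*. The value of *Tgtp1* is uncertain, because it has a close copy, *Tgtp2*, and shares 6900 bases with another annotated gene.

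*Ido1* (chr8:24584136-24597009, minus strand), the gene of the tryptophan-degrading enzyme, varied most of the 10, by 9.97-fold between its highest and lowest tumor. It was at 1.11, 1.49 and 3.40 CPM in the shControl tumors, 2.78, 0.918 and 1.71 CPM in the sh2 tumors and 4.02, 3.35 and 9.15 CPM in the sh3 tumors, from 19 to 214 counts. Every sh3 tumor was above every sh2 tumor, while shControl replicate 3 lay just above sh3 replicate 2. The level with sh3 was 3.05-fold that with sh2 (95% interval 1.19 to 7.78, unadjusted p = 0.0249, FDR 0.673, edgeR), and the exact two-sided permutation p was 0.1, the smallest that 3 tumors against 3 allow. Against shControl it was 2.75-fold with sh3 (interval 1.08 to 6.99, unadjusted p = 0.0362, FDR 0.753, edgeR).

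The *Ido1* difference leaned on sh3 replicate 3. Without that tumor the log2 fold change was 1.00 against sh2 (unadjusted p = 0.134, edgeR) and 0.86 against shControl (unadjusted p = 0.188, edgeR), down from 1.61 and 1.46. The unadjusted p against shControl was also above 0.05 without shControl replicate 1 (0.117), shControl replicate 2 (0.109) or sh2 replicate 3 (0.0512), all from edgeR. Against sh2 it was above 0.05 without sh2 replicate 2 (0.0802) or sh2 replicate 3 (0.0687), from the same test. With sh2 against shControl the log2 fold change was −0.15 (SE 0.59), and it was positive without shControl replicate 3 (0.48) or sh2 replicate 2 (0.18).

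*Cd274* and *Ido1* moved together over the tumors (r = 0.809, Spearman rho = 0.733, n = 9), and both moved with interferon gamma pathway genes. The summed level of 20 such genes, from *Ifng* and its receptor to targets such as *Cxcl9* and *Gbp2*, was 2476, 3258 and 4134 CPM in the shControl tumors, 3251, 1807 and 2194 CPM in the sh2 tumors and 2441, 4246 and 5924 CPM in the sh3 tumors. Against this sum, *Cd274* had an r of 0.945 (rho = 0.967), 0.895 without the 2 tumors farthest from the median of the sum and 0.921 after the group means were removed. *Ido1* had an r of 0.804 (rho = 0.617), and 0.454 without those 2 tumors, so its relation rested largely on sh3 replicate 3 and sh2 replicate 2. The pattern was not particular to these genes. Against the same sum, r was 0.757 for *Cd86* (rho = 0.933), 0.736 for *Sirpa* (0.767) and 0.553 for *Lgals9* (0.733). It was −0.778 for *Cd276* (−0.833) and −0.414 for *Pvr* (−0.533). *Pdcd1lg2*, *Cd80* and *Cd47* had an r of 0.224, 0.00343 and 0.202. These are descriptions over 9 tumors, whose values come from the same libraries.

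**Figure D3:**
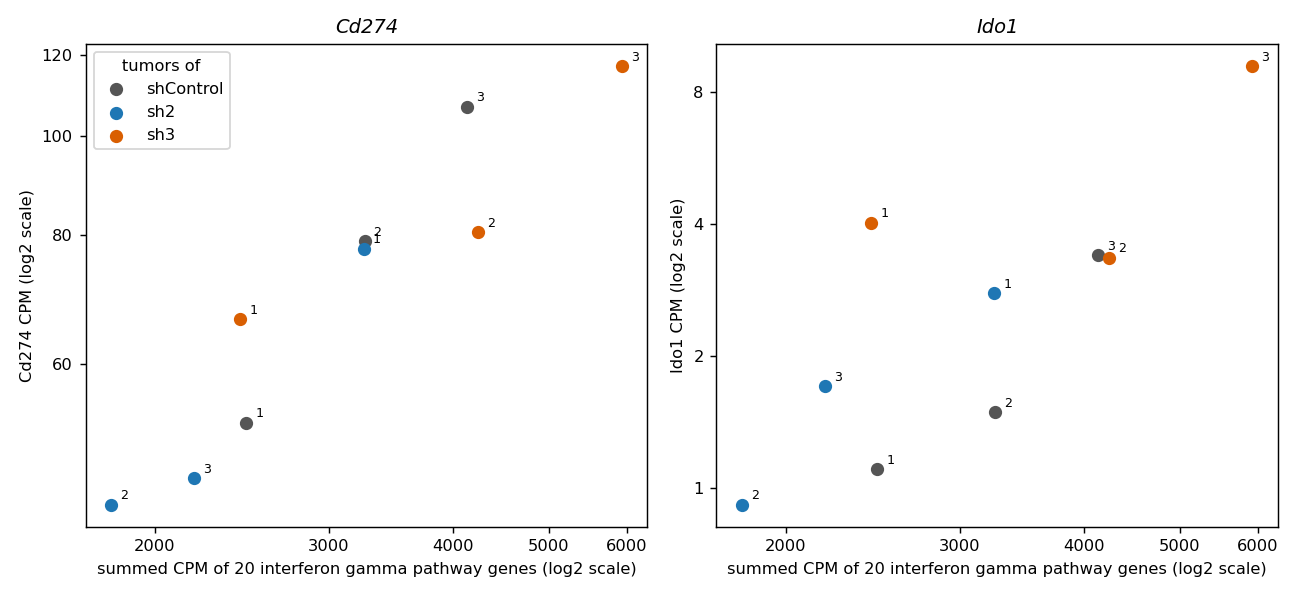
CPM of *Cd274* (left) and *Ido1* (right) against the summed CPM of 20 interferon gamma pathway genes, all axes on a log2 scale, 1 point a tumor, coloured by group and numbered by replicate. *Cd274* climbs with the sum from 43.7 CPM in sh2 replicate 2 to 117 CPM in sh3 replicate 3, and the *Ido1* points scatter more, with sh3 replicate 1 above the others at its sum.

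None of the pathway genes passed the test. Of the 20 genes, 4 were above shControl with sh2 (median log2 fold change −0.61) and 19 with sh3 (median 0.21), and 17 were higher with sh3 than with sh2 (median 0.97). None was under an FDR of 0.05 in edgeR, and 6 had an unadjusted p under 0.05 for sh3 against sh2, beside 7.18% of all genes tested. *Ifng* itself, singled out after its values were seen, was at 1.66, 2.19 and 3.40 CPM in the shControl tumors, 1.31, 0.483 and 0.918 CPM in the sh2 tumors and 1.99, 4.42 and 4.49 CPM in the sh3 tumors, so every sh2 tumor was below every tumor of the other groups. The sum of 11 T cell and NK cell markers was 101.0 to 122.7 CPM in the shControl tumors, 29.8 to 128.2 CPM in the sh2 tumors and 76.3 to 223.2 CPM in the sh3 tumors. In this sum sh2 replicate 1 lay above every shControl tumor and sh3 replicate 1 below every one. Of these 11, 0 were above shControl with sh2 and 11 with sh3, 0 were under an FDR of 0.05, and none was at 0 in every tumor. Their part in the *Cd274* and *Ido1* levels was not tested.

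*Cd80* (chr16:38455561-38496335, plus strand) and *Cd86* (chr16:36603869-36666081, minus strand) encode the B7 ligands of dendritic cells, macrophages and B cells. *Cd80* was at 2.77, 4.18 and 5.12 CPM in the shControl tumors, 6.32, 7.63 and 4.84 CPM in the sh2 tumors and 4.99, 9.04 and 4.24 CPM in the sh3 tumors. Only the lowest tumor of each shRNA group, and sh3 replicate 1, lay within the shControl range. Its log2 fold change was 0.64 with sh2 (SE 0.37, interval −0.20 to 1.47) and 0.60 with sh3 (SE 0.37, interval −0.24 to 1.43), from comparisons that share the shControl tumors. Without sh3 replicate 2 the sh3 value was 0.20, and sh3 against sh2 went from −0.04 to −0.44. For the mean of both it was 0.62 (SE 0.33, FDR 0.982, edgeR), and the exact two-sided permutation p of 6 tumors against 3 was 0.143, where the smallest possible is 0.0119.

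*Cd86* was at 26.4, 31.2 and 32.7 CPM in the shControl tumors, 28.3, 20.3 and 24.2 CPM in the sh2 tumors and 13.7, 69.2 and 44.5 CPM in the sh3 tumors. The sh3 tumors held both the lowest and the 2 highest of the 9 levels. Its log2 fold change was −0.31 with sh2 (SE 0.45) and 0.50 with sh3 (SE 0.45, interval −0.53 to 1.52, FDR 0.853, edgeR), and with sh3 it was −0.04 without sh3 replicate 2 and 0.92 without sh3 replicate 1. The ratio of *Cd86* to *Cd80* CPM was 6.38 to 9.52 in the shControl tumors, 2.66 to 5.01 in the sh2 tumors, and 2.75, 7.65 and 10.5 in the sh3 tumors. Every sh2 tumor was thus below every shControl tumor in this ratio. The share of other gene ratios that separate was not computed, and 11.4% of all single genes tested did not overlap between these groups.

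*Cd80* kept closer company with *Pdcd1lg2* than with *Cd86* over the tumors (r = 0.811 and 0.264). Without sh3 replicate 2 and shControl replicate 1, the tumors farthest from the median of *Pdcd1lg2*, the r of *Cd80* with *Pdcd1lg2* was 0.289, so that likeness rested on those tumors. Those most like *Ido1* were *4933412E12Rik* (r = 0.938) and *Efcab14* (r = 0.927). The genes most like *Pdcd1lg2* were *AA467197* (r = 0.932) and the microRNA gene *Mir147* (r = 0.922), which lies inside *AA467197* on the same strand, so their reads cannot be told apart. Those most like *Cd80* were *6330416G13Rik* (r = 0.916) and *Zfp788* (r = 0.908).

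*Sirpa*, *Cd86* and *Lgals9* formed a block that varied together over the tumors, with r = 0.94 for *Sirpa* and *Cd86* (the highest of the 45 pairs), 0.876 for *Sirpa* and *Lgals9*, and 0.846 for *Cd86* and *Lgals9*. *Sirpa* (chr2:129592835-129632228, plus strand), the gene of the CD47 receptor of macrophages, was at 238.6, 233.2 and 230.8 CPM in the shControl tumors, 236.1, 139.4 and 191.6 CPM in the sh2 tumors and 103.8, 347.0 and 299.8 CPM in the sh3 tumors. The shControl tumors were nearly alike (coefficient of variation 1.7%), while the sh3 tumors held the lowest and highest levels (51.6%). *Sirpa* has close relatives in the genome, the Sirpb genes, and reads shared with them could have been counted differently. Its log2 fold change was −0.31 with sh2 (SE 0.38, interval −1.17 to 0.55) and 0.10 with sh3 (SE 0.38, interval −0.77 to 0.96), and the sh3 value was negative without sh3 replicate 2 (−0.21) or sh3 replicate 3 (−0.08).

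*Lgals9* (chr11:78962974-78984946, minus strand), the gene of galectin-9, was at 88.4, 105.3 and 89.5 CPM in the shControl tumors, 94.2, 90.2 and 82.9 CPM in the sh2 tumors and 39.7, 122.0 and 128.8 CPM in the sh3 tumors. The shControl and sh2 tumors lay close together, and the sh3 tumors lay on both sides of all of them. Its log2 fold change was −0.08 with sh2 (SE 0.36, interval −0.89 to 0.72) and 0.04 with sh3 (SE 0.36, interval −0.77 to 0.85, FDR 0.991, edgeR), and the sh3 value was 0.41 without sh3 replicate 1 and negative without shControl replicate 1 or 3 or sh3 replicate 2 or 3 (−0.25 to −0.02).

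*Cd276* and *Pvr* had negative correlations with this block. *Cd276* (chr9:58524298-58555437, minus strand), which encodes the B7 family protein B7-H3, was at 85.6, 95.9 and 88.5 CPM in the shControl tumors, 78.2, 126.0 and 96.8 CPM in the sh2 tumors and 116.2, 57.8 and 70.7 CPM in the sh3 tumors. *Pvr* (chr7:19903578-19921160, minus strand) was at 64.7, 95.2 and 85.0 CPM in the shControl tumors, 88.0, 99.2 and 72.6 CPM in the sh2 tumors and 135.0, 48.9 and 71.1 CPM in the sh3 tumors. For both genes the levels in sh2 replicate 2 and sh3 replicate 1 were the 2 highest and that in sh3 replicate 2 the lowest of the 9 tumors. *Cd276* and *Pvr* had an r of 0.818 with each other, and against *Sirpa* they had −0.91 and −0.85. With the sum of 10 carcinoma and epithelial markers, r was 0.639 for *Cd276* and 0.201 for *Pvr*. Without sh2 replicates 2 and 3 these were 0.337 and 0.17. *Pvr* had an r of −0.838 with *Cd86*, which was −0.294 without sh3 replicates 1 and 2, and −0.73 with *Lgals9* (rho = −0.367), which was −0.463 without sh3 replicates 1 and 3, so its relation to these genes rested largely on those tumors.

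The group differences of both were small beside their spread. The log2 fold change of *Cd276* was 0.16 with sh2 (SE 0.26, interval −0.43 to 0.75) and −0.14 with sh3 (SE 0.26, interval −0.73 to 0.45), and both turned sign without replicate 2 of the construct (−0.04 and 0.05). That of *Pvr* was 0.08 with sh2 (SE 0.33, interval −0.67 to 0.84) and 0.06 with sh3 (SE 0.33, interval −0.69 to 0.81). Both *Pvr* values were negative without shControl replicate 1 (−0.06 and −0.10), and the sh3 value was −0.44 without sh3 replicate 1. Small antisense or pseudogene annotations of at most 639 bases overlap *Cd276* and *Pvr*.

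These 5 genes were set beside the macrophage and monocyte RNA of the tumors. The sum of 16 markers was 3853 to 4254 CPM in the shControl tumors, 2922 to 4019 CPM in the sh2 tumors and 2413, 8274 and 5118 CPM in the sh3 tumors, and 0 of the 16 were at 0 in every tumor. Against this sum r was 0.971 for *Cd86*, 0.926 for *Sirpa*, 0.768 for *Lgals9*, −0.937 for *Cd276* and −0.922 for *Pvr* (n = 9 tumors), with rho of 0.883, 0.867, 0.583, −0.9 and −0.883. Without the 2 tumors farthest from the median, sh3 replicates 1 and 2, r was 0.874, 0.944, 0.543, −0.933 and −0.674. *Lgals9* was thus the least closely tied, and its order among the tumors with middling sums did not follow them. Of the 16 markers, 12 were below shControl with sh2, 9 were above it with sh3, and 0 were under an FDR of 0.05 in either. The sum does not speak for each marker: *Ly6c2* was highest in sh3 replicate 1 and sh2 replicate 2, where the sum was lowest. The part of macrophage content in the levels of these genes was not tested, and both come from the same libraries.

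**Figure D4:**
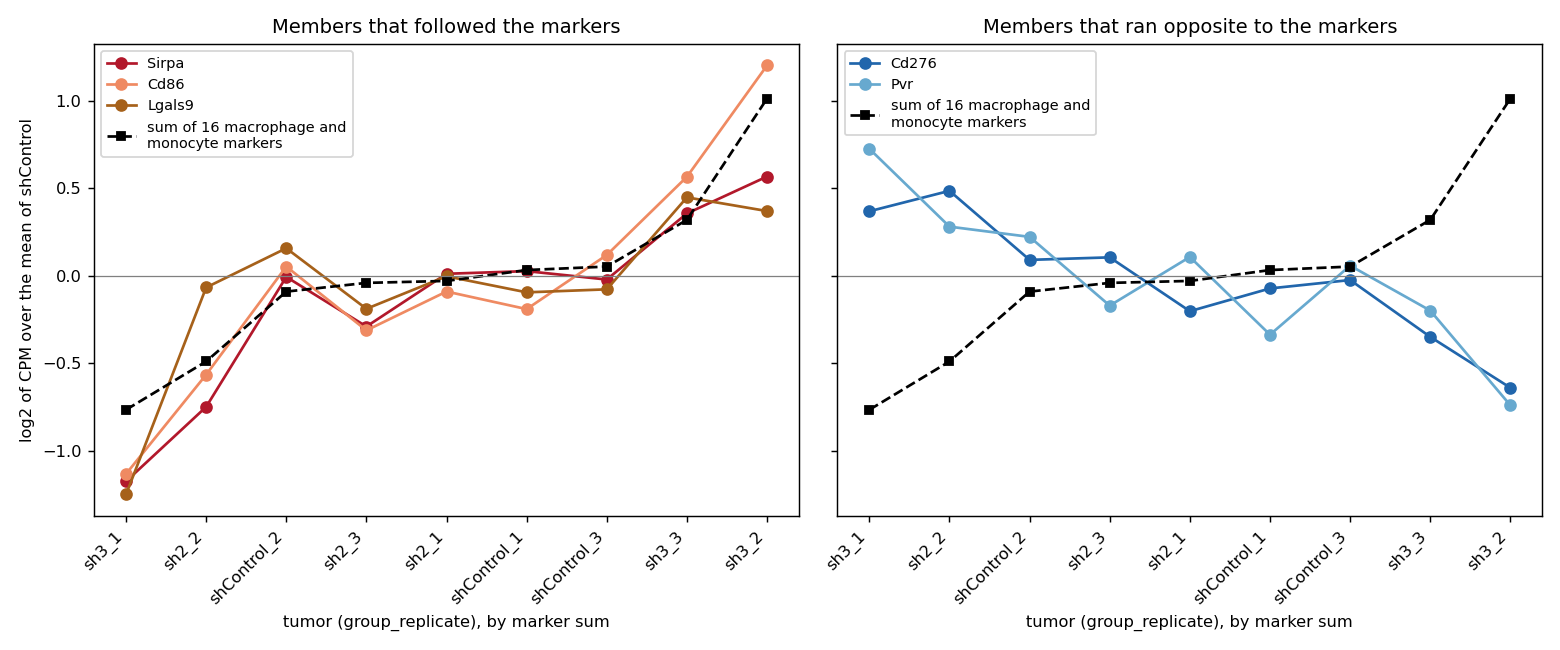
Levels of *Sirpa*, *Cd86* and *Lgals9* (left) and of *Cd276* and *Pvr* (right) as log2 of CPM over the mean of the 3 shControl tumors, with the sum of 16 macrophage and monocyte markers as a dashed line. Tumors are ordered by that sum, from 2413 CPM in sh3 replicate 1 to 8274 CPM in sh3 replicate 2. *Sirpa* and *Cd86* are low on the left and high on the right (rho 0.867 and 0.883), *Cd276* and *Pvr* the reverse (−0.9 and −0.883), and *Lgals9* follows the dashed line less closely (0.583).

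The genes were divided by *Ptprc* within each tumor, a ratio chosen after the values were seen. Its outcome largely follows from their r with *Ptprc*, 0.933 for *Sirpa*, 0.846 for *Cd86*, 0.767 for *Lgals9*, −0.851 for *Cd276* and −0.622 for *Pvr*. Without sh3 replicate 1 and sh2 replicate 2 these were 0.75, 0.707, 0.767, −0.64 and −0.0123, so that of *Pvr* rested on those tumors. The ratio is thus a description and no further support. *Sirpa* per *Ptprc* ran from 1.01 to 1.42 over the 9 tumors, a range of 1.4-fold where its CPM ranged 3.34-fold. The range fell from 5.04-fold to 2.26-fold for *Cd86* and from 3.24-fold to 2.34-fold for *Lgals9*. For *Pvr* it widened from 2.76-fold to 7.36-fold and for *Cd276* from 2.18-fold to 5.53-fold. The genes most like the block were *Prkch* and *Vav1*, a signal protein gene of blood cells, for *Sirpa* (r = 0.997 and 0.996), and *Aif1*, itself among the 16 macrophage markers, and *B9d2* for *Cd86* (both r = 0.987). For *Lgals9* they were *Abca13* (r = 0.972) and *Apobec1* (r = 0.97). Those most like *Pvr* were *Gpr161* (r = 0.988) and *Usp27x* (r = 0.983), and those most like *Cd276* were *Gdpd5* (r = 0.972) and *Srsf6* (r = 0.968).

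The fit was also read without sh3 replicate 1, the tumor lowest in *Ptprc*. This tumor was also the lowest of the 9 for *Cd86*, *Lgals9* and *Sirpa* and the highest for *Pvr*, so leaving it out narrows the spread of these genes by itself, and the counts are a description and no support for a difference. Without it, 5 of the 10 genes had an unadjusted p under 0.05 for sh3 against shControl, beside 14.4% of all genes tested in that fit, and 7 of the 10 for sh3 against sh2, beside 19.0%. In the latter, *Cd86* was higher by 1.23 on the log2 scale (SE 0.21, FDR 0.15, edgeR), *Sirpa* by 0.78 (SE 0.20, FDR 0.16, edgeR) and *Lgals9* by 0.49 (SE 0.13, FDR 0.16, edgeR). *Cd274* and *Ido1* were also higher, by 0.82 and 1.79, while *Cd276* and *Pvr* were lower, at −0.64 and −0.53. With 2 sh3 tumors left, 0 of the 10 genes and 0.0% of all genes were under an FDR of 0.05 in either comparison. Leaving out sh2 replicate 2, the other tumor low in *Ptprc*, gave 0 of the 10 genes at an unadjusted p under 0.05 for sh3 against sh2.

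*Cd47* (chr16:49800533-49915010, plus strand), the signal that SIRPα receives, was the steadiest of the 10, with a 1.8-fold range. It was at 92.9, 110.6 and 113.5 CPM in the shControl tumors, 125.3, 167.1 and 96.5 CPM in the sh2 tumors and 97.7, 121.8 and 146.4 CPM in the sh3 tumors. The groups overlapped, with the highest level in sh2 replicate 2. Its log2 fold change was 0.29 with sh2 (SE 0.22, interval −0.20 to 0.79) and 0.21 with sh3 (SE 0.22, interval −0.29 to 0.70), but it was 0.08 with sh2 without sh2 replicate 2 and 0.03 with sh3 without sh3 replicate 3. The genes most like it were *Prps2* (r = 0.98) and *Aco1* (r = 0.931), and its r with the macrophage marker sum was 0.10. The ratio of *Sirpa* to *Cd47* CPM was 2.03 to 2.57 in the shControl tumors, 0.835 to 1.99 in the sh2 tumors and 1.06, 2.85 and 2.05 in the sh3 tumors. Every sh2 tumor lay below every shControl tumor, but the nearest were only 1.99 and 2.03. The share of other gene ratios that separate was not computed, and 11.4% of all single genes tested did not overlap between these groups.

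**Figure D5:**
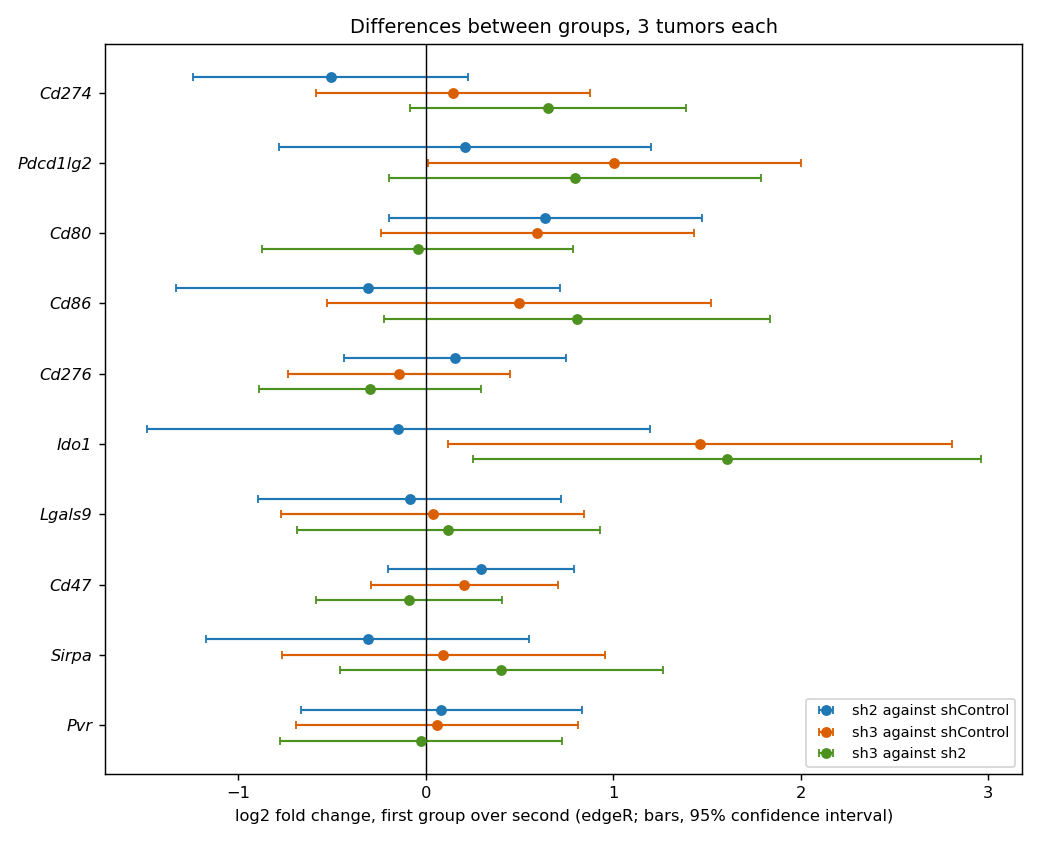
Log2 fold change of each of the 10 genes with sh2 against shControl, sh3 against shControl and sh3 against sh2, with 95% confidence intervals from edgeR (3 tumors a group). The intervals of *Pdcd1lg2* with sh3 and of *Ido1* with sh3 against both other groups lie above 0 before adjustment, and all others include 0.

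The receptors of these ligands did not pass the test either. Their summed level was 80.4, 89.9 and 96.6 CPM in the shControl tumors, 94.7, 50.1 and 64.9 CPM in the sh2 tumors and 78.8, 128.7 and 140.9 CPM in the sh3 tumors, so the groups overlapped, with the lowest sum in sh2 replicate 2. Of 8 receptor genes, 1 was above shControl with sh2 (median log2 fold change −0.36), 8 with sh3 (median 0.46), and 8 were higher with sh3 than with sh2 (median 0.90). None was under an FDR of 0.05 in edgeR. At an unadjusted p under 0.05 there was 1 of the 8 with sh3 against shControl, beside 6.63% of all genes tested. There were 2 with sh3 against sh2, beside 7.18%. The tumors did not overlap for 2 of the 8 with sh3 against shControl, beside 12.2%, and for 1 with sh3 against sh2, beside 10.1%. *Ctla4*, the inhibitory receptor for CD80 and CD86, was at 1.53, 2.61 and 2.42 CPM in the shControl tumors, 3.08, 1.45 and 1.38 CPM in the sh2 tumors and 3.33, 5.44 and 4.41 CPM in the sh3 tumors. Every sh3 tumor was above every tumor of the other groups, and the level with sh3 was 2.23-fold that with sh2 (95% interval 1.17 to 4.25, unadjusted p = 0.0207, FDR 0.673, edgeR) and 2.01-fold that in shControl (interval 1.05 to 3.82, unadjusted p = 0.0369, FDR 0.753, edgeR).

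*Havcr2*, the gene of the galectin-9 receptor TIM-3, was at 27.5, 30.1 and 25.8 CPM in the shControl tumors, 26.0, 15.7 and 15.3 CPM in the sh2 tumors and 20.2, 48.6 and 41.0 CPM in the sh3 tumors. It was 1.92-fold higher with sh3 than with sh2 (95% interval 1.16 to 3.20, unadjusted p = 0.0171, FDR 0.673, edgeR), although sh3 replicate 1 lay below sh2 replicate 1. *Pdcd1*, the gene of PD-1, was at 14.7, 14.5 and 14.4 CPM in the shControl tumors, 15.9, 2.13 and 8.30 CPM in the sh2 tumors and 9.29, 21.6 and 31.6 CPM in the sh3 tumors. The lowest level was in sh2 replicate 2, and its log2 difference between sh3 and sh2 was 1.24 (SE 0.63, interval −0.18 to 2.67). *Tigit* and *Cd96*, receptors of *Pvr*, had log2 fold changes of 0.25 (SE 0.28) and 0.23 (SE 0.66) with sh3 against shControl, and without sh3 replicate 3 these were −0.0016 and −0.13. Without shControl replicate 1 that of *Cd96* was −0.001. *Cd28*, the activating receptor for CD80 and CD86, ranged from 0.676 to 6.89 CPM, and *Cd226*, the activating receptor for CD155, from 0.29 to 3.15 CPM, each lowest in sh2 replicate 2. *Rgmb*, a receptor of PD-L2, had a log2 fold change of 0.23 (SE 0.13, FDR 0.767, edgeR) with sh3, with every sh3 tumor (19.6 to 20.9 CPM) above every shControl tumor (16.7 to 17.9 CPM).

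Among 12 other checkpoint receptors, such as *Lag3* and *Icos*, 2 were above shControl with sh2 and 11 with sh3, with 0 under an FDR of 0.05. *Tnfrsf9*, which encodes the activating receptor 4-1BB, was at 11.5, 15.98 and 11.3 CPM in the shControl tumors, 22.7, 17.9 and 22.1 CPM in the sh2 tumors and 25.2, 20.02 and 12.9 CPM in the sh3 tumors. All but sh3 replicate 3 were above every shControl tumor, and the level for the mean of both constructs was 1.56-fold that in shControl (95% interval 1.09 to 2.23, unadjusted p = 0.0214, FDR 0.982, edgeR). In that comparison 4.09% of all genes tested had an unadjusted p under 0.05. *Tnfrsf9* was named for the largest log2 fold change there among the 12, so these values are no support for a difference. Of 19 other ligands and phagocyte signals, 9 were above shControl with sh2 and 9 with sh3, and of 11 regulators of PD-L1 protein or CD47 maturation 10 and 7 were, with 0 under an FDR of 0.05 in either list.

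Other suppressive enzymes and cytokines did not follow the receptors: of 14 tested, 7 were above shControl with sh2 and 8 with sh3, and 0 were under an FDR of 0.05. *Nt5e*, *Arg1* and *Ptgs2* were named for their large log2 fold changes for the mean of both constructs, with the same sign with each. Their values below are thus a description and no support for a difference. *Nt5e*, which encodes the adenosine-producing enzyme CD73, was at 92.0, 109.8 and 76.9 CPM in the shControl tumors, 55.2, 31.5 and 50.1 CPM in the sh2 tumors and 35.8, 47.5 and 72.7 CPM in the sh3 tumors. All 6 shRNA tumors were below all shControl tumors, where 2.17% of all genes tested did not overlap. The log2 fold change was −0.93 for the mean of both (SE 0.24, unadjusted p = 0.00406, FDR 0.982, edgeR). In that comparison 4.09% of all genes tested had an unadjusted p under 0.05. *Arg1*, the gene of arginase 1, was at 23.6, 32.7 and 16.4 CPM in the shControl tumors, 69.6, 171.4 and 179.6 CPM in the sh2 tumors and 42.4, 106.5 and 11.1 CPM in the sh3 tumors. It was 5.79-fold higher with sh2 (95% interval 1.89 to 17.8, unadjusted p = 0.00623, FDR 0.999, edgeR), and with sh3 the tumors lay on both sides of the shControl range. *Ptgs2*, the gene of cyclooxygenase 2, was 41.9 to 54.5 CPM in the shControl tumors, 18.3 to 34.6 CPM in the sh2 tumors and 21.4 to 47.5 CPM in the sh3 tumors, a log2 fold change of −0.58 for the mean of both (SE 0.26, FDR 0.982, edgeR).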

How the data were processed

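Poly(A) RNA of 9 KLN205 tumors was sequenced from stranded libraries, 3 tumors for each of 3 constructs. According to the submitters' processing notes and the study's methods, reads were checked with FastQC, aligned to mm10 with STAR 2.5.3a and counted with featureCounts, without pooling of tumors. The strand setting and the treatment of reads that match several places are not given in the sources used here. The authors deposited raw counts per gene symbol, together with CPM signal (counts over the total times a TMM factor) and TPM. The deposited table also holds the authors' edgeR comparisons (log2 fold changes and mean log2 CPM, likelihood ratio score, p-value and FDR), which were not used.

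Counts were fitted in edgeR 4.0.16 (R 4.3.3; filterByExpr, TMM, robust quasi-likelihood, 1 coefficient a group, all 9 tumors), with Benjamini-Hochberg adjustment over 14725 genes, after the scripts were tested on simulated data. Intervals are at 95%. Permutation tests used log2 CPM with a prior count of 2, over all 20 arrangements for 3 tumors against 3. Levels between genes were compared as TPM. The 10 genes and the gene lists were chosen with earlier results of these data known, so no p was adjusted over a list. Named genes were the 10, the target, the receptors of the 10, up to 3 genes of each other list with the largest log2 fold change for the mean of both constructs (same sign with each, at least 1 CPM), and the 2 genes most like each of the 10 by Pearson r. Alternatives were DESeq2 1.42.0, its size factors, edgeR's likelihood ratio test, other filters, only the groups compared, a replicate block and leaving out each tumor. Annotation was GENCODE M21, and promoters were from RefSeq (GRCm38.p6).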

Additional observations from a re-analysis of the deposited data

How the results depend on the processing

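None of the 10 genes was under an FDR of 0.05 in any alternative run. Over all genes, DESeq2's Wald test called 2 with sh2, 41 with sh3, 9 for the mean of both and 48 for sh3 against sh2, where edgeR's quasi-likelihood test called 0 each time, and edgeR's likelihood ratio test called 8 with sh3, 8 for the mean and 14 for sh3 against sh2. The count was 0 in every fit that left out 1 tumor. The targeted gene was under the FDR threshold for the mean of both constructs by the likelihood ratio test and by DESeq2. Same-numbered tumors did not deviate together (mean r −0.0992 over 9 pairs), so the numbers pair nothing. With the replicate block the counts stayed at 0, and the log2 fold changes with sh3 of Lgals9 and Pvr turned to −0.0507 and −0.0108. With at least 10 counts in every tumor, that of Cd276 for the mean was −0.001. The permutation p of Pvr was 0.976 with the opposite direction when CPM were scaled by total count. The cause of these turns was not tested.

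With 1 tumor left out, log2 fold changes turned sign as follows. With sh2 the ranges were −0.0624 to 0.42 for Pdcd1lg2, −0.0354 to 0.30 for Cd276, −0.60 to 0.48 for Ido1, −0.13 to 0.0107 for Lgals9 and −0.0572 to 0.22 for Pvr. With sh3 they were −0.14 to 0.41 for Cd274, −0.0442 to 0.92 for Cd86, −0.49 to 0.0541 for Cd276, −0.25 to 0.41 for Lgals9, −0.21 to 0.47 for Sirpa, −0.44 to 0.34 for Pvr, −0.0016 to 0.53 for Tigit and −0.13 to 0.40 for Cd96. For the mean they were −0.41 to 0.0882 for Cd274, −0.18 to 0.31 for Cd86, −0.16 to 0.11 for Cd276, −0.17 to 0.16 for Lgals9, −0.26 to 0.0792 for Sirpa and −0.18 to 0.21 for Pvr. For sh3 against sh2 they were −0.44 to 0.13 for Cd80, −0.17 to 0.49 for Lgals9, −0.28 to 0.12 for Cd47, −0.53 to 0.25 for Pvr and −0.0054 to 0.13 for Rgmb. Ido1, Pdcd1lg2, Cd80 and Cd47 stayed above 0 with sh3 against shControl. With 3 tumors a group the intervals of the 10 genes are wide, and Ido1 rests on as few as 19 counts in a tumor.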

Other observations

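No stromal marker was under an FDR of 0.05 with sh3 against shControl in edgeR. All 7 fibroblast markers had log2 fold changes below 0, and 4 of them had an unadjusted p under 0.05, beside 6.63% of all genes tested. For 3 of the 7 the unadjusted p was above 0.05. For the fibroblast markers the sum was 3115 to 5423 CPM in the shControl tumors, 2427 to 4033 CPM in the sh2 tumors and 1322 to 2320 CPM in the sh3 tumors. All 4 adipocyte markers tested had log2 fold changes below 0 with sh3, and 3 of them had an unadjusted p under 0.05, beside the same 6.63%. In the sh3 tumors *Adipoq* had 8, 3 and 0 counts, *Cidec* 15, 0 and 0 and *Plin1* 2, 0 and 0. These were mostly at or below the floor of 3 counts, against 17 to 118 counts in the shControl tumors. All 6 endothelial markers also had log2 fold changes below 0 with sh3, 2 of them at an unadjusted p under 0.05.

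*Ceacam1*, another ligand of TIM-3, was at 395.5 CPM in sh2 replicate 2, against 4.62 to 36.1 CPM in the other tumors. It was singled out after its values were seen.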
